A study of Mus musculus with 73 samples.

Results

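The cystatins Cst7, Cst3 and Cstb were followed in microglia, the macrophages that reside in brain tissue. They were 3 of the 39179 genes listed in each of 3 expression tables, and each was taken as the row whose name equals its symbol. The genes were chosen by their measured values between the genotypes of this study. Their differences between 5xFAD and WT and between TREM2-deficient and TREM2-intact groups are therefore given as a description, with no test. The comparisons on CD33 are tested. The record does not say which comparison the choice rested on, so these tests may not be independent of it.

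Cystatins are reversible, tight-binding inhibitors of papain-like cysteine proteases, which include most of the cathepsins of the lysosome. Cst7 encodes cystatin F, which is made by immune cells, reaches endosomes and lysosomes, and is known as an inhibitor that can act on cathepsin C, an activator of granule proteases. Cst3 encodes cystatin C, a secreted inhibitor that is abundant in cerebrospinal fluid and in microglia. Cstb encodes cystatin B (stefin B), which acts mainly inside the cytosol and nucleus, and loss of the human gene causes progressive myoclonus epilepsy of the Unverricht-Lundborg type. Cst7 is a well-known marker of the microglial state found near amyloid plaques.

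RNA was sequenced from brain cells sorted for CD11b and CD45, from mice of strain C57BL/6. The study asked how CD33, an inhibitory sialic acid receptor, and TREM2, an activating lipid receptor, act on microglia in 5xFAD mice, which carry mutant human transgenes that drive amyloid deposition. At 4 months of age there were 7 WT libraries, 9 of 5xFAD, 4 of 5xFAD;CD33-/-, 4 of 5xFAD;TREM2-/- and 2 of 5xFAD;CD33-/-;TREM2-/-, called the double knockout. At 8 months a table on CD33 held 11 5xFAD and 12 5xFAD;CD33-/- libraries, and a table on TREM2 held 6 WT, 10 5xFAD and 8 5xFAD;TREM2-/- libraries. Both knockouts were studied only on the 5xFAD background, so no group lacks a receptor without the transgenes. Nothing states that each library came from a separate mouse, and 3 titles carry 2 animal numbers, so p-values measure the spread between these libraries.

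Levels are in RPKM, reads scaled to gene length and to sequencing depth, which allows genes of different length to be compared. The 3 tables were normalized separately, and levels set across them carry that limit. Recovered depth was 21188034 to 79654244 reads per library. The summed level of the 8 microglial markers was 7125 to 16642 RPKM. Trem2 was 13.7 to 36.3 RPKM in the libraries labelled TREM2-deficient and 339 to 1169 RPKM in all others. Without CD33 at 4 months, Cd33 was at most 0.205 RPKM in the single knockouts. It was 14.02 RPKM in replicate 1 of the double knockout and 19.1 RPKM in replicate 7 of 5xFAD;CD33-/- at 8 months, which goes against their labels. Xist and a Y-linked gene both exceeded 1 RPKM in 3 libraries at 4 months, namely double knockout replicate 1, 5xFAD;CD33-/- replicate 2 and 5xFAD;TREM2-/- replicate 9.

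On GRCm38 (GENCODE M21), Cst7 (ENSMUSG00000068129) is a protein-coding gene on the plus strand of chromosome 2 at 150570415-150578944. Cst3 (ENSMUSG00000027447) is on the minus strand of the same chromosome at 148871722-148875692. Cstb (ENSMUSG00000005054) is on the plus strand of chromosome 10 at 78425669-78427622. The gene lengths that the authors divided by were 982, 1262 and 596 bases in that order. Since the cells were measured in bulk, fewer expressing cells and less RNA per cell cannot be told apart.

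**Figure D1:**
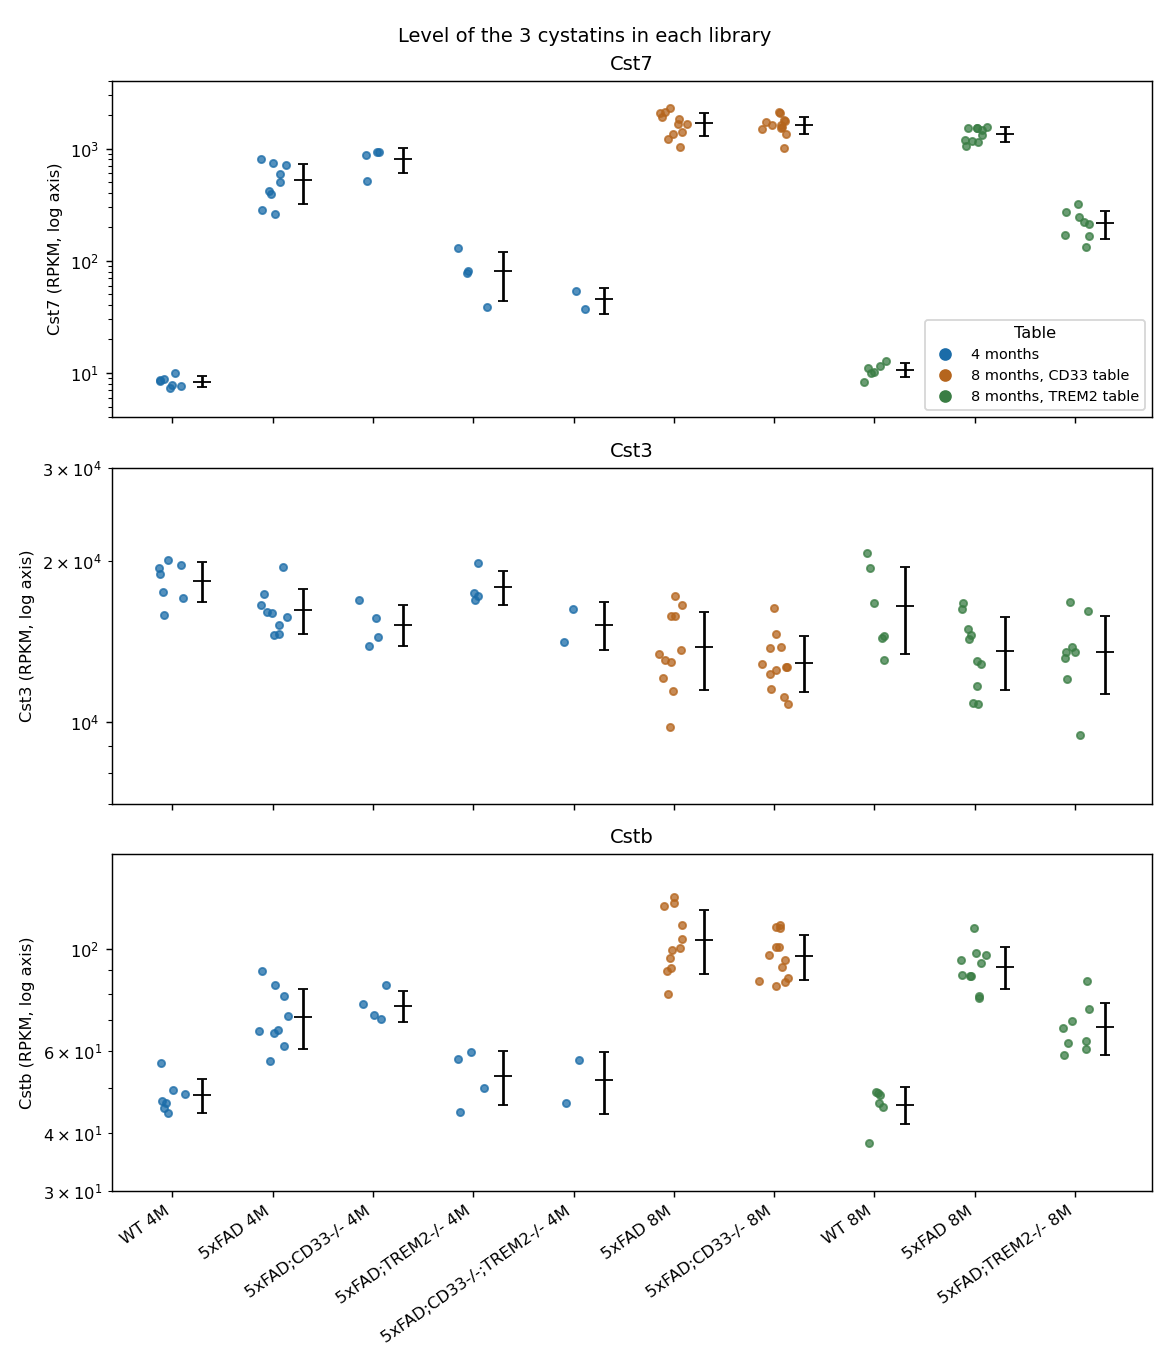
Level of each cystatin in RPKM on a log axis (vertical) in each library, by group (horizontal), with the mean ± SD beside the points and colours for the 3 tables. Cst7 spans from 7.28 to 2307 RPKM, Cst3 stays between 9431 and 20731 RPKM, and Cstb lies between 38.0 and 130 RPKM.

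Cst7 separated the groups more widely than either other cystatin. In WT at 4 months its lowest, median and highest levels were 7.28, 8.47 and 10.01 RPKM, and in 5xFAD they were 261, 499 and 800.5 RPKM. The mean was 8.35 ± 0.913 RPKM (SD, n = 7) in WT and 523 ± 202 RPKM (SD, n = 9) in 5xFAD, a ratio of means of 62.7. No 5xFAD library came near the WT range, while the 5xFAD libraries themselves differed widely. The log2 difference was 5.79 ± 0.24 (SE), the highest of all 13024 genes tested at that age.

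At 8 months the lowest, median and highest Cst7 levels in WT were 8.27, 10.6 and 12.8 RPKM, against 1055, 1401 and 1553 RPKM in 5xFAD of the same table. The means were 10.6 ± 1.52 RPKM (SD, n = 6) and 1348 ± 195 RPKM (SD, n = 10), a ratio of 127. The groups did not overlap, and the log2 difference of 6.92 ± 0.15 (SE) again ranked first, among 12622 genes tested. Among all genes ordered by RPKM within a library, Cst7 had a median place of 5261 in WT and 79 in 5xFAD at 4 months. At 8 months its median place was 4508 in WT and 26 in 5xFAD. WT libraries still held 248 to 545 reads of Cst7, so the WT level rests on counted reads and not on a floor. Microglial markers moved with this comparison, with 5 of 8 called lower in 5xFAD at 4 months and 7 of 8 at 8 months, where 7.79% and 30.5% of all genes tested were called lower. Of the endothelial markers 3 of 8 and 8 of 8 rose, beside 8.95% and 28.3% of all genes. With the endothelial level as a covariate the Cst7 differences were 5.57 and 7.19, and the part of the other cell types was not tested.

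Without TREM2, Cst7 lay between WT and 5xFAD. The 4 libraries of 5xFAD;TREM2-/- at 4 months held 38.3, 76.9, 80.1 and 130 RPKM, with a mean of 81.4 ± 37.7 RPKM (SD). All 4 were below every 5xFAD library and above every WT library. The log2 difference was -2.70 ± 0.28 (SE) from 5xFAD and 3.09 ± 0.30 (SE) from WT. At 8 months the lowest, median and highest were 134, 217 and 319 RPKM in 8 libraries, again clear of both other groups. The log2 difference there was -2.67 ± 0.13 (SE) from 5xFAD and 4.25 ± 0.15 (SE) from WT, and the mean was 20.4 times that of WT. In the comparison of 5xFAD;TREM2-/- with WT, Cst7 ranked first among all genes tested at both ages. Comparisons of 1 table share their 5xFAD or WT libraries, so these values are not independent of each other. Some cell markers also moved at 8 months. Against WT, 8 of 8 endothelial markers were called higher and 7 of 8 microglial markers lower, beside 19.9% and 22.4% of all genes. Against 5xFAD, 3 of 8 oligodendrocyte and 2 of 8 microglial markers were called higher and 1 microglial marker lower, beside 7.04% and 10.3% of all genes. The part of these cell types was not tested beyond the endothelial covariate.

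The level without TREM2 was higher in the 8-month table than in the 4-month table, 217 ± 61.0 RPKM against 81.4 ± 37.7 RPKM, and their ranges did not overlap. For 5xFAD the corresponding means were 1348 RPKM, or 1690 RPKM in the CD33 table, against 523 RPKM. Age and table cannot be told apart here, and no test was made across the tables.

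The effect of CD33 on Cst7 was tested. At 4 months the 5xFAD;CD33-/- libraries held 513, 870, 926 and 928 RPKM, with a mean of 809 ± 199 RPKM (SD, n = 4). The 3 highest exceeded every 5xFAD library, and replicate 4, the lowest, lay near the middle of the 5xFAD range. The log2 difference was 0.69 ± 0.28 (SE), with a 95% interval of 0.11 to 1.28, and did not pass adjustment over all genes (limma, adjusted p = 0.12). In that comparison 1.90% of the genes tested were called higher and 3.00% lower. Leaving out 1 library at a time gave differences of 0.58 to 0.90, with 0.90 (limma, adjusted p = 0.0445) without replicate 4. Leaving out the lowest knockout library can only raise the difference, so that p is not a separate test. With libraries weighted by their quality the difference was 0.88 (limma, adjusted p = 0.0111). That weighting called 2153 of all 13024 genes higher and 2931 lower. With only the compared groups fitted, the difference was 0.69 (limma, adjusted p = 0.205). It was 0.61 without the 3 libraries that exceeded 1 RPKM for both Xist and a Y-linked gene.

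Library titles carry a set number, whose meaning is not given. In the 3 sets that held both genotypes at 4 months, Cst7 was higher without CD33 in each, by log2 differences of 0.93 to 1.23. In set 8 the values were 415 RPKM with CD33 and 870 RPKM without, and in set 10 they were 396 and 928 RPKM. Set 11 held 2 libraries of each genotype, at 261 and 499 RPKM with CD33 and 513 and 926 RPKM without. The 5xFAD libraries of these 3 sets reached 499 RPKM, while those of other sets reached 800 RPKM. With the set as a term, the difference was 0.93 ± 0.34 (SE; limma, adjusted p = 0.0709). Endothelial markers, of which Cldn5 was the highest, summed to 288 to 750 RPKM in these 4 libraries and 123 to 842 RPKM in 5xFAD, and 1 of the 8 was called higher without CD33, while all 8 had an unadjusted p under 0.05. With their level as a covariate the Cst7 difference was 0.39 ± 0.31 (SE; limma, adjusted p = 0.855). Oligodendrocyte markers, led by Cnp, summed to 105 to 223 RPKM without CD33 and 85.6 to 137 RPKM in 5xFAD, with 5 of 8 called higher and all 8 under an unadjusted p of 0.05. Unadjusted p was also under 0.05 for 5 of 6 astrocyte markers, which summed to 25.3 to 44.3 RPKM without CD33 and 18.6 to 32.4 RPKM in 5xFAD. It was so for 5 of 5 erythrocyte markers, which summed to 9.98 to 29.2 RPKM without CD33 and 22.5 to 130 RPKM in 5xFAD. The same held for 3 of 8 microglial, 3 of 6 perivascular macrophage, 2 of 3 dendritic and 1 of 1 neuronal markers tested. It held for 0 of 6 mural and 0 of 6 monocyte and neutrophil markers. The share of all genes under that unadjusted p is not given here, so these counts have no background beside them. The part of these cell types in the Cst7 difference was not tested beyond the endothelial covariate.

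At 8 months no difference in Cst7 between 5xFAD with and without CD33 was called. Its lowest, median and highest values were 1040, 1658 and 2307 RPKM in 5xFAD and 1011, 1616 and 2102 RPKM in 5xFAD;CD33-/-, and 11 of the 12 knockout libraries lay inside the 5xFAD range. The log2 difference was -0.03 ± 0.13 (SE), with a 95% interval of -0.30 to 0.24 (limma, adjusted p = 0.923). Of the genes tested, 2.95% were called higher and 0.344% lower. In 3 of the 8 sets that held both genotypes Cst7 was higher without CD33, with log2 differences from -0.36 to 0.41 over the sets. Without replicate 7, whose Cd33 goes against its label, the difference was -0.01. All 8 endothelial markers rose in this comparison, and their sums were 103 to 367 RPKM in 5xFAD and 195 to 783 RPKM in 5xFAD;CD33-/-. With their level as a covariate the difference was 0.20 ± 0.17 (SE; limma, adjusted p = 1.00). The ages are in separate tables and the difference between them was not tested.

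**Figure D2:**
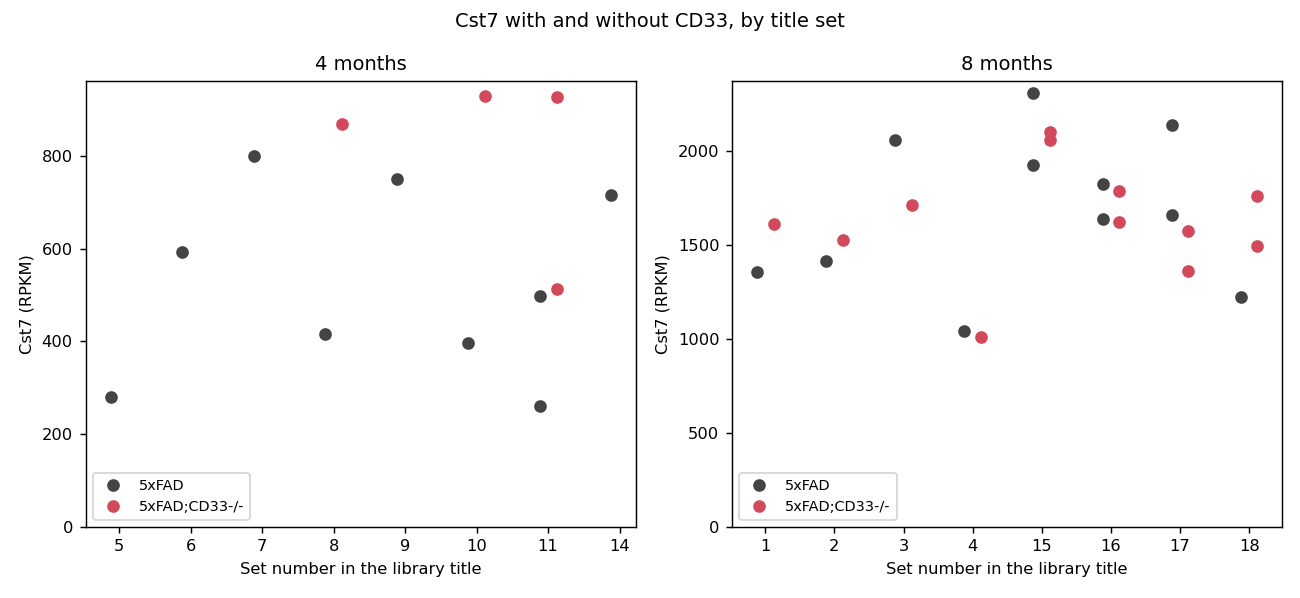
Cst7 in RPKM (vertical) for each 5xFAD and 5xFAD;CD33-/- library, by the set number in its title (horizontal), at 4 months on the left and 8 months on the right. At 4 months the 3 highest libraries lack CD33, and at 8 months the genotypes interleave.

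The 2 double knockout libraries held 37.0 and 53.5 RPKM of Cst7, both below every library with TREM2 in the 5xFAD groups of that age. The log2 difference was -3.44 ± 0.37 (SE) from 5xFAD and -4.13 ± 0.41 (SE) from 5xFAD;CD33-/-. Against 5xFAD;TREM2-/- it was -0.74 ± 0.41 (SE), with a 95% interval of -1.58 to 0.11, and was not called (limma, adjusted p = 0.899). In that last comparison 0.0384% of genes were called higher and 0.0307% lower. Replicate 1, with 37.0 RPKM, is the library with Cd33 reads, and without it the difference was -0.47 ± 0.53 (SE). The estimate for loss of CD33 was thus above 0 with TREM2 and below 0 without it. The difference between these estimates, a comparison added after the values had been seen, was -1.43 ± 0.50 (SE; limma, adjusted p = 0.91), so it did not pass adjustment.

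Ordered by mean level, the groups for Cst7 ran from the 8-month groups with TREM2, through 5xFAD;CD33-/- and 5xFAD at 4 months, to 5xFAD;TREM2-/- at 8 and 4 months, the double knockout and WT. Ranges of neighbouring groups were separate at only 3 places. These were between the 8-month groups with TREM2 and the 4-month groups with TREM2, between 5xFAD;TREM2-/- at 8 months and at 4 months, and between the double knockout and WT.

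**Figure D3:**
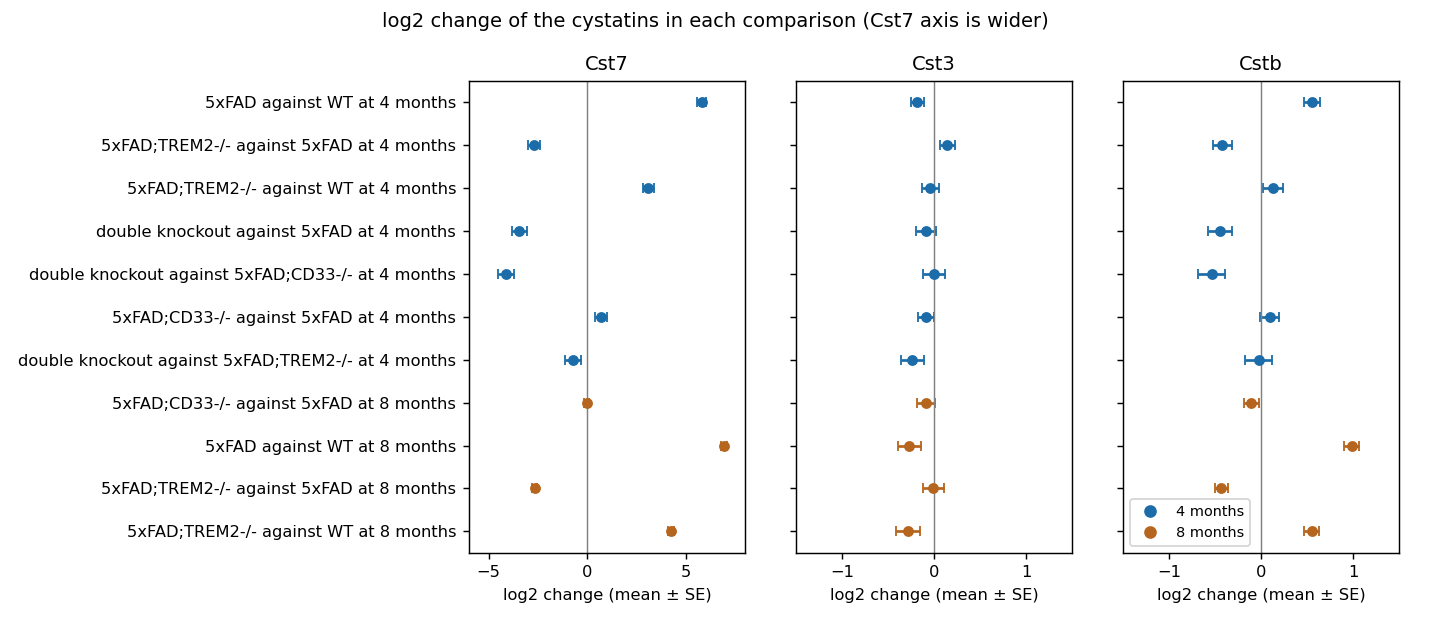
log2 change with its standard error (horizontal) for each comparison (vertical) and cystatin, with 4-month comparisons in blue and 8-month comparisons in brown. Cst7 reaches 6.92 on a wider axis, Cst3 stays between -0.28 and 0.14, and Cstb follows the direction of Cst7 in the comparisons of 5xFAD with WT and of TREM2 knockouts with 5xFAD.

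Since T and natural killer cells also make cystatin F, their markers were checked. Their 9 markers summed to between 0 and 3.10 RPKM in any library, and 0 of the 9 passed the filter on low values in any table. Their highest sum in WT at 4 months was 1.35 RPKM, against 1.85 RPKM in 5xFAD. At 8 months their sums were 0.0885 to 0.616 RPKM in WT, 0.821 to 1.88 RPKM in 5xFAD and 0.246 to 0.948 RPKM in 5xFAD;TREM2-/-. Monocyte and neutrophil markers, led by S100a9, varied from 29.7 to 1866 RPKM over the libraries, and 0 of their 6 tested members were called between 5xFAD and WT in the limma fit at either age, with 0 also at an unadjusted p under 0.05. Of all genes tested, 8.95% were called higher and 7.79% lower at 4 months, and 28.3% and 30.5% at 8 months. The share of all genes under the unadjusted p is not given here. The part of these cells in the Cst7 level was not tested.

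Cst3 was the most abundant transcript by RPKM in most libraries. It ranked first in all 26 libraries at 4 months, in all 6 WT libraries and all 8 5xFAD;TREM2-/- libraries at 8 months, and in 5 of 10 5xFAD libraries of the same table. In the other 5, and in 9 of 11 5xFAD and 11 of 12 5xFAD;CD33-/- libraries of the CD33 table, Ctsd, the aspartic protease cathepsin D, was first and Cst3 second. Cst3 alone took 1.27 to 2.51% of all recovered reads. Its level spanned 9431 to 20731 RPKM over all libraries.

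At 4 months the lowest, median and highest Cst3 levels were 15838, 18955 and 20140 RPKM in WT and 14560, 16023 and 19556 RPKM in 5xFAD. The groups overlapped, with 5 of the 9 5xFAD libraries inside the WT range, and the log2 difference was -0.18 ± 0.07 (SE). At 8 months WT held 13072, 15597 and 20731 RPKM and 5xFAD held 10803, 13661 and 16688 RPKM, with a log2 difference of -0.27 ± 0.12 (SE). Endothelial markers moved with this comparison. All 8 rose from WT to 5xFAD at 8 months, and their sums were 180 to 489 RPKM in WT and 387 to 1196 RPKM in 5xFAD. With their level as a covariate the Cst3 difference changed sign, to 0.24 ± 0.12 (SE). The direction of the small Cst3 difference at 8 months therefore depended on that choice.

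Without TREM2, the Cst3 range overlapped those of 5xFAD and WT at both ages. The 4 libraries at 4 months held 16925, 17234, 17476 and 19824 RPKM, a log2 difference of 0.14 ± 0.08 (SE) from 5xFAD. At 8 months the lowest, median and highest were 9431, 13496 and 16753 RPKM, and the difference was -0.01 ± 0.11 (SE) from 5xFAD and -0.28 ± 0.13 (SE) from WT. With the endothelial level as a covariate the difference from WT turned to 0.35 ± 0.13 (SE). The 5xFAD;CD33-/- libraries held 13862, 14414, 15630 and 16960 RPKM at 4 months, and their difference of -0.09 ± 0.08 (SE) was not called, with a 95% interval of -0.26 to 0.08 (limma, adjusted p = 0.517). At 8 months the difference without CD33 was -0.08 ± 0.10 (SE), with an interval of -0.29 to 0.12 (limma, adjusted p = 0.707). The double knockout libraries held 14086 and 16291 RPKM, both below the 4 libraries of 5xFAD;TREM2-/-, and the difference of -0.24 ± 0.12 (SE) was not called (limma, adjusted p = 0.892). Neighbouring groups overlapped at every step of the order for Cst3.

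Cstb differed in the same directions as Cst7, over a far smaller range. At 4 months its lowest, median and highest levels were 44.2, 46.8 and 56.5 RPKM in WT and 57.2, 66.6 and 89.4 RPKM in 5xFAD. The ranges did not overlap, although the highest WT library, replicate 12, came close to the lowest 5xFAD library. The means were 48.2 ± 4.10 RPKM (SD, n = 7) and 71.2 ± 10.6 RPKM (SD, n = 9), and the log2 difference was 0.55 ± 0.08 (SE). At 8 months WT held 38.0, 47.3 and 48.9 RPKM and 5xFAD 78.1, 90.5 and 111 RPKM, which was a log2 difference of 0.98 ± 0.08 (SE) with a wide gap between the groups. By this difference Cstb was in place 624 of 13024 genes at 4 months and 749 of 12622 at 8 months.

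Without TREM2, Cstb was lower than in 5xFAD. The 4 libraries at 4 months held 44.4, 49.9, 57.8 and 59.9 RPKM, and 2 of them overlapped the 5xFAD range. The log2 difference was -0.42 ± 0.10 (SE) from 5xFAD and 0.13 ± 0.10 (SE) from WT. At 8 months the lowest, median and highest were 58.8, 65.3 and 85.2 RPKM, and 1 of the 8 libraries lay inside the 5xFAD range. The difference was -0.43 ± 0.07 (SE) from 5xFAD and 0.55 ± 0.08 (SE) from WT, whose range lay below all 8. At 4 months, then, the Cstb ranges of TREM2-deficient and WT libraries overlapped, while for Cst7 they were separate at both ages.

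Cstb was not called in any of the 3 tests on CD33. At 4 months the 5xFAD;CD33-/- libraries held 70.4, 71.8, 75.8 and 83.5 RPKM, all inside the 5xFAD range, with a log2 difference of 0.09 ± 0.10 (SE) and a 95% interval of -0.12 to 0.30 (limma, adjusted p = 0.587). At 8 months the lowest, median and highest were 79.6, 100.2 and 130 RPKM in 5xFAD and 83.1, 95.8 and 112 RPKM in 5xFAD;CD33-/-, a difference of -0.11 ± 0.08 (SE) with an interval of -0.28 to 0.06 (limma, adjusted p = 0.55). The double knockout libraries held 46.3 and 57.6 RPKM, a difference of -0.03 ± 0.15 (SE) from 5xFAD;TREM2-/- with an interval of -0.33 to 0.27 (limma, adjusted p = 0.985). From 5xFAD the double knockout differed by -0.45 ± 0.13 (SE) and from 5xFAD;CD33-/- by -0.54 ± 0.15 (SE). Without replicate 1 the latter was -0.38.

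Levels per length also show how the balance between the cystatins differed. The median ratio of Cst7 to Cstb was 0.174 in WT and 7.52 in 5xFAD at 4 months, and 0.223 in WT and 15.1 in 5xFAD at 8 months. In 5xFAD;TREM2-/- it was 1.44 at 4 months and 3.29 at 8 months, and in the 2 double knockout libraries it was 0.798 and 0.929. Cst3 remained the most abundant cystatin throughout. Its level exceeded that of Cst7 by a median factor of 2216 in WT and 29.2 in 5xFAD at 4 months. At 8 months that factor was 1516 in WT, 9.87 in 5xFAD and 63.1 in 5xFAD;TREM2-/-.

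Other genes of the cystatin family were close to absent from these cells. Of 29 listed, 21 were found in the tables, 7 of these were at 0 in every library, and their summed level was at most 8.18 RPKM. The only one that passed the filter on low values was Stfa2l1, a stefin A-like gene, in the 8-month CD33 table. Its lowest, median and highest levels there were 0.512, 1.91 and 4.42 RPKM in 5xFAD and 0.163, 1.09 and 5.94 RPKM in 5xFAD;CD33-/-, and it was not called (limma, adjusted p = 0.475). In that table the monocyte and neutrophil markers summed to 186 to 1866 RPKM, and their part in the Stfa2l1 signal was not tested.

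The cysteine proteases that cystatins inhibit were described from a list of 11, the papain-like cathepsins together with legumain (Lgmn), an asparagine-specific lysosomal protease that some cystatins also inhibit. Of these, 10 were tested in each table. A further 8 lysosomal proteases of other classes, which cystatins do not target, stood beside them, with 6 or 7 tested. Both lists were chosen with earlier results of these data known.

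Several cathepsins were higher in 5xFAD, but cathepsin C was not among them. At 4 months Ctsb, Ctsz and Ctsl, which encode cathepsins B, Z and L, rose and Lgmn fell, so that 3 of 10 were called higher and 1 lower, beside 8.95% and 7.79% of all genes tested. The log2 change of Ctsb was 0.68 ± 0.08 (SE; limma, adjusted p = 1.88e-06), from a mean of 939 to 1513 RPKM. Ctsz changed by 0.67 ± 0.09 (SE; limma, adjusted p = 9.4e-06) and Ctsl by 0.57 ± 0.08 (SE; limma, adjusted p = 2.56e-05). Lgmn fell by 0.24 on the log2 scale (limma, adjusted p = 0.0212), a call that was lost with the replicate block and with the endothelial covariate. Ctsc, the cathepsin C gene, had means of 88.6 and 89.6 RPKM and a change of 0.01 ± 0.05 (SE; limma, adjusted p = 0.911). The median log2 change was 0.15 over the 10 cysteine proteases and -0.02 over all genes tested.

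At 8 months 6 of the 10 rose and 2 fell between WT and 5xFAD, where 28.3% of all genes were called higher and 30.5% lower. Ctsb had the largest increase, 1.14 ± 0.10 (SE; limma, adjusted p = 7.58e-10), from a mean of 978 to 2174 RPKM. Ctsz rose by 1.01 ± 0.08 (SE; limma, adjusted p = 2.38e-10) and Ctsl by 0.95 ± 0.11 (SE; limma, adjusted p = 1.04e-07). Ctsw, with means of only 0.478 and 1.39 RPKM, Ctsh and Ctss also rose, while Lgmn and Ctsf fell. Ctsc was again not called, with a change of -0.06 ± 0.09 (SE; limma, adjusted p = 0.571). The median change over the list was 0.27, against -0.02 over all genes tested. The summed level of the list had a median of 10373 RPKM in WT and 13688 RPKM in 5xFAD.

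Among the other lysosomal proteases, 4 of 6 were called higher and 1 lower at each age, beside 8.95% and 7.79% of all genes tested at 4 months and 28.3% and 30.5% at 8 months. Ctse, the aspartic protease cathepsin E, changed most, by 2.23 ± 0.25 (SE; limma, adjusted p = 6.64e-07) at 4 months and 3.93 ± 0.21 (SE; limma, adjusted p = 1.72e-13) at 8 months, from WT means of 0.268 and 0.311 RPKM. Ctsd rose by 0.56 ± 0.09 (SE; limma, adjusted p = 6.45e-05) and 0.96 ± 0.09 (SE; limma, adjusted p = 4.9e-09). The carboxypeptidase genes Scpep1 and Ctsa rose and Prcp fell at both ages.

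Loss of TREM2 was compared next. At 4 months 1 of 10 cysteine proteases, Ctsz, was called lower in 5xFAD;TREM2-/- than in 5xFAD, by -0.42 ± 0.11 (SE; limma, adjusted p = 0.0297), and 0 were called higher by limma. Of all genes tested, 2.00% were called lower and 0.392% higher. That call was lost without the filter, with the set as a term and when only the compared groups were fitted. It was also lost when the 3 libraries with more than 1 RPKM of Xist and of a Y-linked gene were left out. Over all the other settings the count of cysteine proteases called lower ranged from 0 to 3. Of the other proteases, Ctse fell by 1.48 and Ctsd by 0.39 on the log2 scale (limma, adjusted p = 0.00424 and 0.0428), so 2 of 6 were called lower. That count ranged from 0 to 3 over the other settings and was 0 when only the compared groups were fitted. It was 1 without the filter, with the stricter filter, with the set as a term and without the 3 libraries named for Xist. It was also 1 without 5xFAD replicate 4, 6, 7, 8 or 9, or 5xFAD;TREM2-/- replicate 1, 7 or 9. At 8 months Ctsz, Ctsh, Ctsb, Ctsl and Ctsw fell, which was 5 of 10, with 10.3% of all genes called lower and 7.04% higher. Ctsz fell by 0.60 (limma, adjusted p = 1.6e-06), Ctsh by 0.39 (limma, adjusted p = 0.000169) and Ctsb by 0.44 (limma, adjusted p = 0.000865) on the log2 scale. Ctse, Ctsd, Scpep1 and Ctsa, 4 of the 6 other proteases, also fell.

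**Figure D4:**
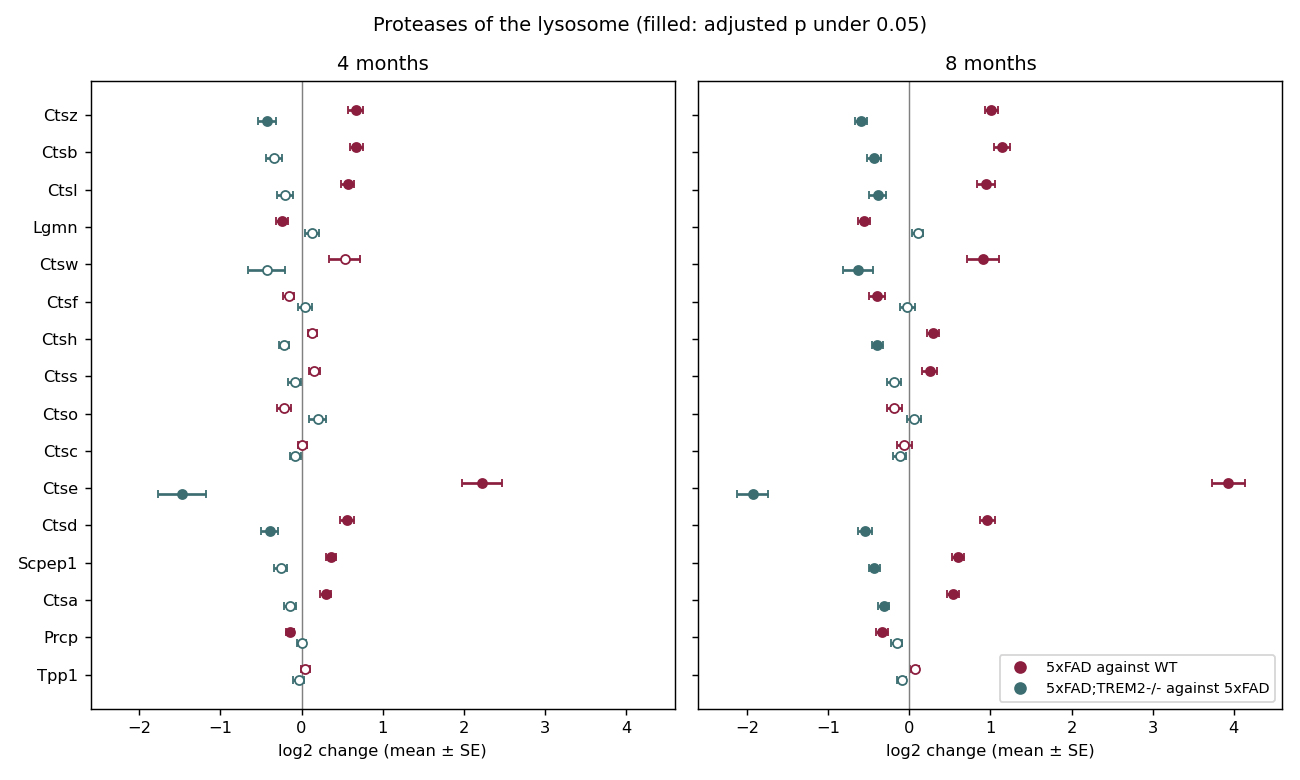
log2 change with its standard error (horizontal) of 16 lysosomal proteases (vertical) in 5xFAD against WT and in 5xFAD;TREM2-/- against 5xFAD, at 4 and 8 months. Filled points passed an adjusted p under 0.05; Ctsc is unfilled in all 4 comparisons and Ctse has the largest changes, up to 3.93.

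Set against WT, 5xFAD;TREM2-/- had 0 of 10 cysteine proteases called by limma at 4 months, where 0.322% of genes were called higher and 0.0768% lower. At an unadjusted p under 0.05 there were 3 of the 10, a count given without the share of all genes under that p. The lowest adjusted p (limma) was 0.195, for Ctsl. Voom on recovered reads called 0, while over all the other settings at most 2 were called higher and 0 lower. At 8 months 3 were called higher (Ctsb, Ctsz and Ctsl) and 2 lower (Lgmn and Ctsf), beside 19.9% and 22.4% of all genes. Ctsb rose by 0.70 ± 0.10 (SE; limma, adjusted p = 9.72e-06).

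In the double knockout, Ctsh, Ctsl and Ctsz fell against 5xFAD, so 3 of 10 were called lower and 0 higher in the limma fit, beside 3.41% and 0.338% of all genes. Against 5xFAD;CD33-/- those genes and Ctsb fell, 4 of 10, beside 3.92% of genes called lower and 0.990% called higher. Ctsz fell by 0.67 and 0.79 on the log2 scale in these comparisons (limma, adjusted p = 0.00488 and 0.00247). Fewer were called lower with the set as a term. Replicate 2 of the double knockout is the only library of its set, so that fit rests on replicate 1. In the 3 tests on CD33 none of the cysteine proteases was called by limma, with the lowest adjusted p being 0.136 for Ctsb at 4 months, 0.604 for Ctsl in the double knockout and 0.481 for Ctsw at 8 months. At an unadjusted p under 0.05 there were 2, 2 and 0 of the 10 in that order. The share of all genes under that unadjusted p is not given here, so these counts have no background beside them. Voom on recovered reads called 0 in each test. Of all genes tested, the main fit called 1.90% higher and 3.00% lower at 4 months. Those shares were 0.0384% and 0.0307% in the double knockout, and 2.95% and 0.344% at 8 months. At 4 months other settings did make calls for loss of CD33. Array weights called 1 of the 10 higher and 1 lower, the set as a term called 1 higher, and leaving out 5xFAD;CD33-/- replicate 4 called 1 lower. Of all 13024 genes, array weights called 2153 higher and 2931 lower, and the set as a term called 911 and 1053.

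To describe which genes followed each cystatin, 10023 genes were ranked by the lowest Pearson r with it over the 3 tables. The tables held 26, 23 and 24 libraries. The genes ranked were those tested in all 3 tables, less duplicated names and provisional names. Provisional names were Gm with a number, names ending in Rik and clone names. Over all libraries, where r follows the genotype groups, Cst7 was most like Coro1c, Myo1e, Ctsz, St14 and Cox6a2, with a lowest r of 0.85 to 0.87. Taken as deviations from the group means, which removes the difference between groups, it was most like Ctsb, Igf1, Itgax, Gsto1 and Ctsd. For Ctsb these r were 0.90, 0.82 and 0.77 in the 4-month, 8-month CD33 and 8-month TREM2 tables, and for Itgax, the CD11c gene, they were 0.93, 0.78 and 0.73. Ctsd, an aspartic protease of a class that cystatins do not target, had r of 0.85, 0.76 and 0.69 in that order. Libraries of 1 group that were high in Cst7 were thus also high in these transcripts. Of these nearest genes, only Ctsb encodes a protease of the class that cystatins inhibit. These points share library, depth and cell content, so the values are a description.

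**Figure D5:**
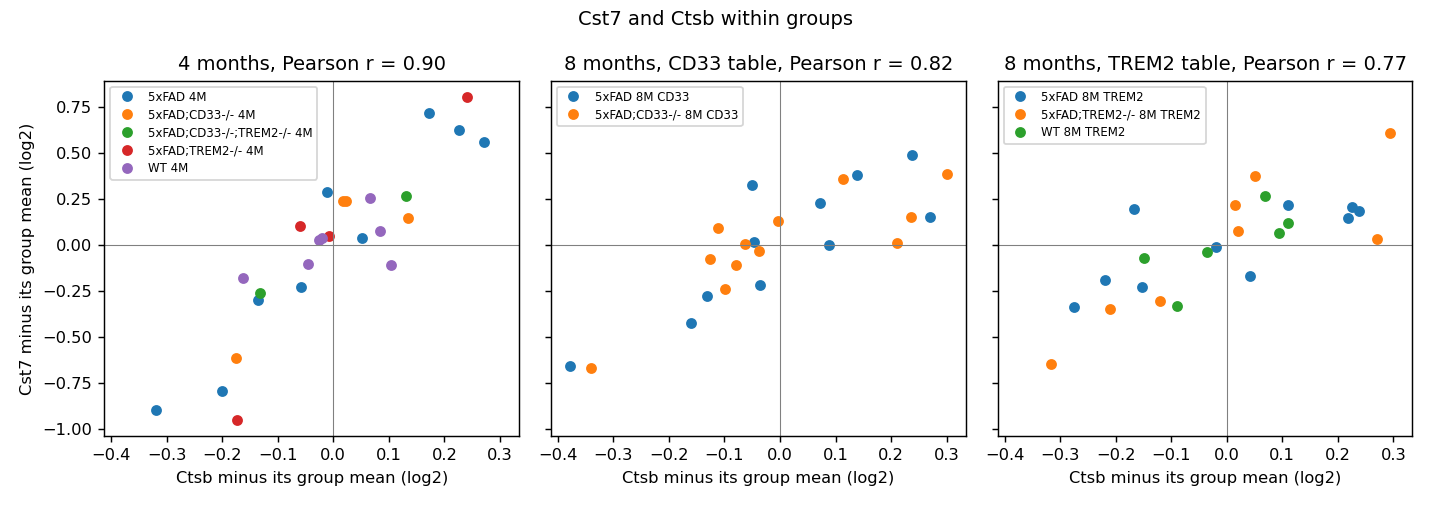
Deviation of Cst7 (vertical) and of Ctsb (horizontal) from their group means in log2 units, with 1 point per library and 1 panel per table. Points rise together in each panel, with Pearson r of 0.90, 0.82 and 0.77, and the deviations of Cst7 are wider than those of Ctsb.

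Cst3 followed other genes. Over all libraries it was most like Snx17, Limd2, Acads, Clic1 and Cyth4, with a lowest r of 0.75 to 0.78, and 4 of these 5 returned among its nearest genes for deviations from group means, with Pih1d1 in place of Cyth4. The genes most like Cstb over all libraries included Rpl22, which encodes a ribosomal protein, Rpl10a-ps1, Cox4i1, which encodes a subunit of mitochondrial cytochrome c oxidase, and Mien1. Rpl10a-ps1 is annotated as a pseudogene, so its reads may come from a near-identical copy. For deviations Cstb was most like Hint1, Mien1, Tmem256, Clta and Ndufa1, with a lowest r of 0.59 to 0.61. Among the cystatins themselves, r within groups between Cst7 and Cstb was 0.72, 0.47 and 0.52 in the 3 tables, and between Cst7 and Cst3 it was -0.01, 0.31 and 0.35.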

How the data were processed

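The deposited values are RPKM, made by the authors in 3 separate tables for sorted mouse brain microglia. Per the submitters' processing notes, STAR, HTSeq and edgeR were used with mm10 (GRCm38); the sources used here give neither their roles nor their versions. RPKM times gene length gave whole reads within 0.05 for 100% of values, from which depth was recovered.

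Each table was fitted once, all its groups together, by limma 3.58.1 (R 4.3.3). The fitted values were log2(RPKM + 0.5), and the moderated test was two-sided, with trend and robust options. Genes entered where RPKM reached 1 in a number of libraries equal to the size of that table's smallest group. Benjamini-Hochberg adjustment ran over all of them, and calls had an adjusted p under 0.05. Nothing was tested across tables. Fold changes on this scale understate changes of low genes. The fit was tested on simulated data: at a simulated log2 change of 0.5, the share recovered was 68% for CD33 loss at 4 months, 78% at 8 months and 45% for the double knockout against TREM2 loss. These shares are over genes drawn at random, each with its own spread, and do not apply to Cst7 in particular. Its replicate SD in log2 units was 0.55 for CD33 loss at 4 months.

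Members and all lists were chosen with earlier results of these data known. Named genes were the members, Cd33 and Trem2, the 5 genes most like each member by the lowest Pearson r over the tables, up to 4 members of each protease list per comparison by p, and the highest gene of each marker list. Not every gene so selected is reported here. Of 39179 IDs, 37693 were in GENCODE M21. Groups follow the genotype and age of the labels and no library was left out. The alternatives changed the pseudocount, filter, scaling, model terms or libraries.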

Additional observations from a re-analysis of the deposited data

Results flagged for a closer look

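Of 21 combinations of a cystatin and a group of 4 to 10 libraries, 3 held a library far from the others. Chance alone would give about 1 in 20. Cst7 in 5xFAD;CD33-/- at 4 months was 513.2 RPKM in replicate 4, while the other 3 libraries held 870 to 928 RPKM. Cstb in WT at 4 months was 56.52 RPKM in replicate 12, above 44.2 to 49.5 RPKM in the other 6. Cstb in WT at 8 months was 37.98 RPKM in replicate 2, below 45.6 to 48.9 RPKM in the other 5, and the title of that library carries 2 animal numbers.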

How the results depend on the processing

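Of 843 recomputed log2 differences of the cystatins, 817 kept their direction and side of the threshold or stayed within the replicate spread. For Cst7 without CD33 at 4 months, array weights gave 0.88 (limma, adjusted p = 0.0111) and leaving out 1 library gave 0.58 to 0.90. The compared groups alone gave 0.69 (limma, adjusted p = 0.205), and leaving out the 3 libraries above 1 RPKM for Xist and a Y-linked gene gave 0.61. With the title set as a term, Cst7 in the double knockout was -4.05 from 5xFAD and -4.98 from 5xFAD;CD33-/-, and Cstb was -0.81 and -0.97. From 5xFAD;TREM2-/- they were -1.36 and -0.45 under that term. Replicate 2 of the double knockout is the only library of its set. All these estimates under the set term therefore rest on replicate 1, the library with Cd33 reads against its label. Cstb from 5xFAD;CD33-/- was -0.38 without the Cd33-positive library and -0.69 to -0.38 when 1 library was left out. With the endothelial covariate at 8 months, 5xFAD against WT was 7.19 for Cst7 and 0.24 for Cst3, 5xFAD;TREM2-/- against WT was 4.59 and 0.35, and CD33 loss was 0.20 and 0.12. Differences near 0 changed sign: Cstb in the double knockout against 5xFAD;TREM2-/- was 0.0074 with median-ratio scaling, 0.0495 with the replicate block, 0.13 without the Cd33-positive library, 0.10 without the 3 libraries above 1 RPKM for Xist and a Y-linked gene, and -0.18 to 0.13 when 1 library was left out. Cst7 without CD33 at 8 months was -0.10 to 0.0294 when 1 library was left out. The cause of these shifts was not tested.

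The replicate block, built on title numbers, gave 0.35 for Cst7 without CD33 at 4 months. Same-numbered libraries correlated at a median of 0.0065, -0.14 and 0.14 in the 3 tables, beside 0.0016, -0.055 and -0.013 for other pairs. The correlation was over 0.1 in 5 of 22, 4 of 11 and 8 of 15 same-numbered pairs. Whether the numbers pair the samples is therefore not established. Counts over all genes moved more: in CD33 loss at 4 months 247 genes were called higher and 391 lower, but 7 and 12 with the block, 9 and 14 with the endothelial covariate, 10 and 16 with the compared groups alone, 535 and 487 with voom and 2153 and 2931 with array weights. Of 2248 recomputed counts, 243 moved by over 1.5 times. Over all settings the 8-month counts in CD33 loss were 8 to 459 higher and 6 to 143 lower. The counts between 5xFAD and WT were 811 to 1348 higher and 465 to 1288 lower at 4 months, and 2022 to 4225 higher and 1956 to 4818 lower at 8 months. With 2 double knockout libraries, 45% of simulated log2 changes of 0.5 and 77% of those of 1 were found against 5xFAD;TREM2-/-.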
